A study of Homo sapiens with 6 samples.

Results

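The 29 genes described here are markers used to tell the naive from the primed state of human pluripotent cells. They were taken as a fixed list of symbols, 19 naive markers (KLF17, KLF4, KLF5, KLF2, DPPA2, DPPA3, DPPA5, TFCP2L1, SUSD2, FGF4, NLRP7, ALPPL2, TFAP2C, ARGFX, KHDC3L, ESRRB, TBX3, SOX15 and IL6ST) and 10 primed markers (ZIC2, ZIC5, OTX2, SFRP2, THY1, VIM, SOX11, FZD7, TCF7L1 and SALL2). All 29 had a row among the 53719 rows of the deposited gene count table. The samples were H9 cells, an established line of human embryonic stem cells, grown per the labels in the commercial medium RSeT under its naive culture condition. One group of 3 libraries came from cells given a control gapmer, and the other 3 libraries (titled Sense3, genotype ALR knockdown) from cells given a gapmer against ALR, the alpha satellite RNA of centromeric repeats. A gapmer is an antisense oligonucleotide with a DNA core that lets RNase H cut the paired RNA. Both groups share the line, the medium and the 48 h between transfection and harvest, and the labels name no untransfected cells and no primed culture. The libraries of each group are named a, b and c, 3 values of a group are always given in that order, and no label says that they came from separate cultures, so p-values measure the spread between these libraries, which may be technical.

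Naive cells resemble the epiblast of the blastocyst before implantation, and primed cells the epiblast after it. In human cells the naive state is usually read from transcription factors such as KLF17, TFCP2L1 and TFAP2C, from germline-type genes such as DPPA3, DPPA5 and KHDC3L, and from surface proteins such as SUSD2. The primed state is read from factors of the later epiblast and early neural lineage (ZIC2, OTX2, SOX11, SALL2), from Wnt components (FZD7, SFRP2, TCF7L1) and from VIM and THY1. Several naive markers, DPPA2, KLF4 and TFAP2C among them, are also known from other stem, germline or epithelial cells.

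Total counts ranged from 25087629 to 36576752 per library. Levels are given as RPKM, counts divided by the exon length and by the library size, with the exon length from GENCODE release 29 and TMM-scaled library sizes. Knockdown library a had counts in 29678 rows, against 25898 to 26788 in the other 5. ALR itself has no gene row, so the knockdown was not checked here. In bulk RNA, fewer cells of a type and less RNA per cell cannot be told apart.

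The promoters of 4 members, chosen after their values were seen, are printed as examples of differing CG content. KLF17 (naive) and TCF7L1 (primed) have more CG dinucleotides than DPPA3 (naive) and SALL2 (primed). Each run is 300 bases of GRCh38.p14 from RefSeq, from 250 bases before to 50 after the transcription start, read 5′ to 3′ on the gene's strand, with CG dinucleotides in capitals. KLF17 lies on the plus strand at chr1:44118571-44118870, DPPA3 on the plus strand at chr12:7711183-7711482, TCF7L1 on the plus strand at chr2:85133142-85133441 and SALL2 on the minus strand at chr14:21537072-21537371.
KLF17: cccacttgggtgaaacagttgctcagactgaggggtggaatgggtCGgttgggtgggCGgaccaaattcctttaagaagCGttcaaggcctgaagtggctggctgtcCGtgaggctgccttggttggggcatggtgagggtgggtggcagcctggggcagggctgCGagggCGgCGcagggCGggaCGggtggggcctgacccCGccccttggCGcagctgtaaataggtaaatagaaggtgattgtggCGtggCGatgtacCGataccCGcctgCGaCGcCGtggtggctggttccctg
DPPA3: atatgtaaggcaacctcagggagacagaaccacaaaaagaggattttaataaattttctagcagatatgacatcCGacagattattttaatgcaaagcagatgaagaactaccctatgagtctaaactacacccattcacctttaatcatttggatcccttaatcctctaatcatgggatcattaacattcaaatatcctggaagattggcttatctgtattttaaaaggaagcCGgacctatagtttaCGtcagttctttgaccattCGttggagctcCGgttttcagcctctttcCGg
TCF7L1: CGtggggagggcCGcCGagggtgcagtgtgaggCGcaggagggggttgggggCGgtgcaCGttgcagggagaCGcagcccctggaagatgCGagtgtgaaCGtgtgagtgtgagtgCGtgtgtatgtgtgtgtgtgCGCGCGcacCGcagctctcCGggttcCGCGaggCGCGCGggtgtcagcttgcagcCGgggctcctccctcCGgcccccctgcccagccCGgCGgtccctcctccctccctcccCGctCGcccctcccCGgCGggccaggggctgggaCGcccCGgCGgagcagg
SALL2: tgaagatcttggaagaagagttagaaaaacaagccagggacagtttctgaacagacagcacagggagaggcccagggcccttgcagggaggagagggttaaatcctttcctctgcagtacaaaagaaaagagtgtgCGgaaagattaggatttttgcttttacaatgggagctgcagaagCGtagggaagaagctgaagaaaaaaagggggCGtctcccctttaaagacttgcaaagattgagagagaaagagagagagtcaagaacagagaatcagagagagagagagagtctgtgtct

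Since these 4 were picked with both values known, they show nothing of a relation between CG count and level, and none was tested over the other members. SALL2, with 3 CG dinucleotides, was at 21.3 RPKM in the control libraries, and KLF17, with 18, at 0.0245 RPKM. TCF7L1 had 31 and DPPA3 had 6, at 99.3 and 17.4 RPKM. A RefSeq promoter was matched for 20 of the 29 members, while SUSD2, FGF4, TFAP2C, ARGFX, TBX3, SOX15, THY1, SOX11 and FZD7 were not matched. For each member the first entry was used, so any other transcription start of the gene is not covered. The median CG count was 16 over 13 naive promoters (4 to 49) and 15 over 7 primed promoters (3 to 35), beside a median of 21 over 22197 promoters of protein-coding genes. Fewer than 10 were found in 6 of the 13 naive promoters (46.2%), in 2 of the 7 primed promoters (28.6%) and in 29.9% of all protein-coding promoters.

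The first question was which state the control cells show. Primed markers were the more abundant set, with a median control level of 15.6 RPKM against 1.40 RPKM for the naive markers and 2.14 RPKM for all 19072 protein-coding genes with a length (markers listed at 0 included). The 5 highest members were all primed markers (TCF7L1, FZD7, VIM, SFRP2 and SALL2), and the 7 lowest members with any count were all naive markers (ALPPL2, ARGFX, SUSD2, ESRRB, TBX3, KHDC3L and KLF17). An RPKM of at least 1 was reached by 9 of 10 primed markers and by 11 of 19 naive markers, beside 58.3% of protein-coding genes. These are levels of different genes in 1 kind of culture, so they carry no test, and no naive or primed reference sample was analysed here. Primed markers were thus the more abundant set in a culture labelled naive, although DPPA3 and TFAP2C were well above the protein-coding median. Without such a reference the levels do not decide which state the cells were in.

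**Figure D1:**
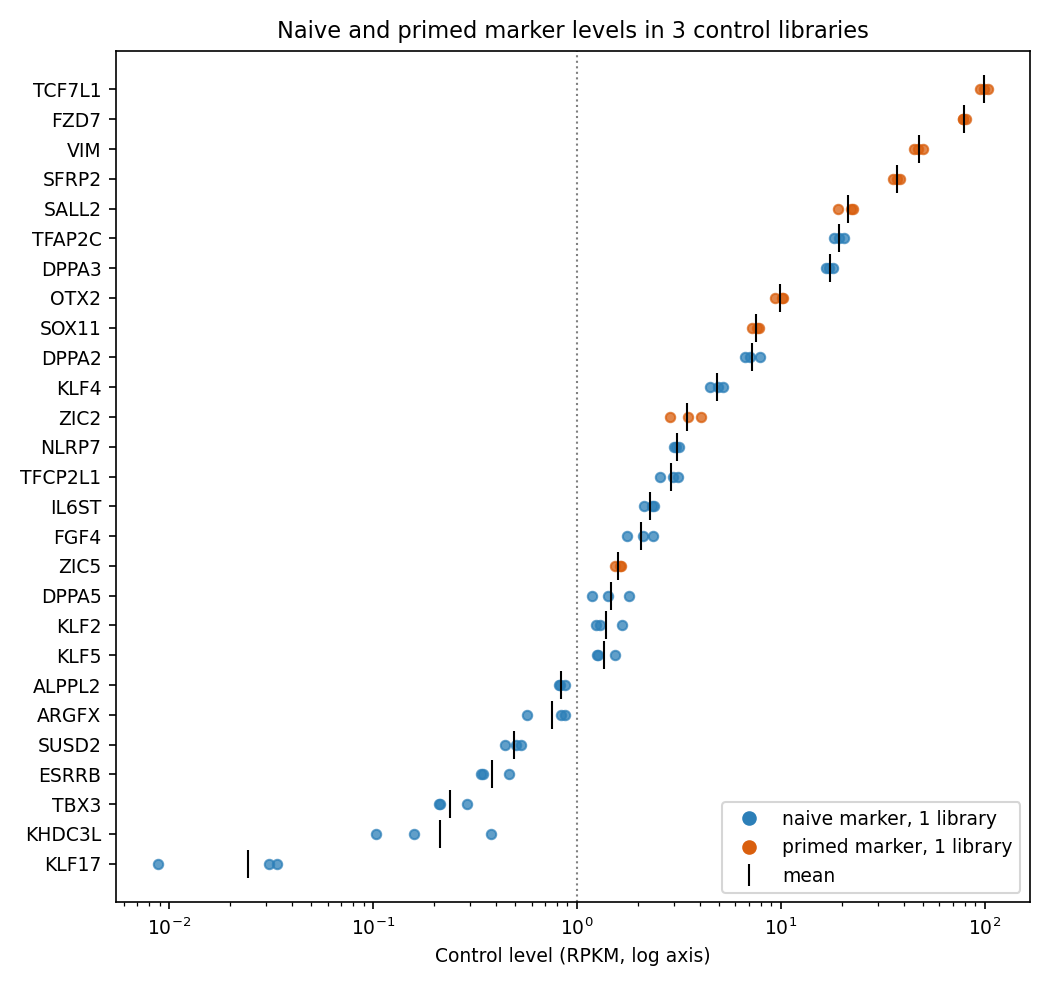
Control level of the 27 members with a count, in RPKM on a log axis, with 1 point per control library, a bar at the mean and a dotted line at 1 RPKM. Naive markers are blue and primed markers orange. TCF7L1 (99.3 RPKM) and FZD7 (79.3 RPKM) lie at the top, and KLF17 (0.0245 RPKM) lies at the bottom.

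Among the naive transcription factors, KLF17, a zinc finger factor often taken as the most state-specific naive marker in human cells, had 3, 3 and 1 counts in the control libraries. Its counts after knockdown were 10, 4 and 1. The highest value was thus in knockdown library a, the library with the most rows detected, and the groups overlapped. KLF17 was too low to be tested, as was KHDC3L, with 3, 5 and 14 counts in the controls and 6 in each knockdown library. KHDC3L belongs to the subcortical maternal complex of the oocyte.

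TFAP2C, an AP-2 factor of naive epiblast, trophoblast and germ cells, was the highest naive marker, with 19.4, 20.4 and 18.2 RPKM in the control libraries. It was above 88.5% of protein-coding genes. TFCP2L1, a CP2-family factor downstream of LIF signalling in mouse cells, had 2.55, 2.97 and 3.13 RPKM in the same libraries. That is close to the protein-coding median, as was its 54.0% rank.

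The KLF members split by level. KLF4, one of the reprogramming factors, had 5.22, 4.52 and 4.94 RPKM in the control libraries. KLF2 and KLF5 were lower, at 1.40 ± 0.229 and 1.35 ± 0.162 RPKM (SD, n = 3), and their values overlapped. ESRRB, an orphan nuclear receptor prominent in mouse naive cells, was at 0.383 ± 0.0702 RPKM, and TBX3, a T-box repressor, at 0.238 ± 0.0449 RPKM (SD, n = 3). ARGFX, a homeobox gene of the early embryo, was at 0.759 ± 0.167 RPKM (SD, n = 3).

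The developmental pluripotency-associated genes also differed from each other. DPPA3 (STELLA), a factor that limits maintenance of DNA methylation, had 16.8, 17.3 and 18.1 RPKM in the control libraries. DPPA2, a chromatin-bound partner of DPPA4, had 6.69, 7.10 and 7.94 RPKM. DPPA5, an RNA-binding KH-domain protein, had only 1.19, 1.80 and 1.42 RPKM from 23, 38 and 35 counts. DPPA5 (chr6:73353062-73354295, hg38) and KHDC3L (chr6:73362677-73364171) are neighbours 8381 bases apart, and both were low. The row of the pseudogene DPPA3P2 held 24 to 58 counts per library, so some reads of DPPA3 may be shared with it.

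The surface and signalling markers of the naive list were all low to middling. SUSD2, the surface protein used to sort naive cells, had 0.533, 0.445 and 0.506 RPKM in the control libraries, above 35.8% of protein-coding genes. ALPPL2 (present symbol ALPG), a placental-type alkaline phosphatase, had 0.818, 0.827 and 0.872 RPKM. Its near-identical relative ALPP held 0 to 6 counts per library. NLRP7, a maternal-effect gene of the NLRP family, was at 3.09 ± 0.0879 RPKM (SD, n = 3). IL6ST, the gp130 signal chain of the LIF receptor, was at 2.29 ± 0.126 RPKM, and FGF4, the ligand that drives ERK signalling in the epiblast, at 2.08 ± 0.301 RPKM (SD, n = 3).

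Among the primed markers, the Wnt components led. TCF7L1, a mostly repressive TCF factor, had 104, 94.5 and 99.3 RPKM in the control libraries, above 99.0% of protein-coding genes. FZD7, a Wnt receptor of human embryonic stem cells, had 78.4, 81.0 and 78.3 RPKM. SFRP2, a secreted Wnt modulator, had 38.5, 37.1 and 35.4 RPKM. The 3 genes did not overlap in these libraries.

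VIM, the intermediate filament protein vimentin, had 49.8, 47.2 and 45.3 RPKM in the control libraries. With the longest transcript as the length instead of all exons, its mean was 91.7 instead of 47.4 RPKM. SALL2, a spalt-type zinc finger factor, had 22.6, 22.1 and 19.1 RPKM. The lowest SALL2 value lay within the TFAP2C range, so the ranges of this primed and this naive marker overlapped. Within each control library, SALL2 was higher than TFAP2C.

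The homeobox and HMG factors of the primed list were lower. OTX2, a homeobox factor of the post-implantation epiblast, was at 9.90 ± 0.451 RPKM, and SOX11, a SoxC factor, at 7.57 ± 0.287 RPKM (SD, n = 3). The zinc finger neighbours ZIC2 and ZIC5, 9862 bases apart on chromosome 13, were at 3.47 ± 0.595 and 1.60 ± 0.0570 RPKM (SD, n = 3). ZIC2 overlapped NLRP7, and ZIC5 overlapped DPPA5. In the order of all 29 levels, 12 of 28 neighbouring pairs overlapped in the control libraries, the pair listed at 0 included. Of the 162 pairs of a naive and a primed marker with counts, the primed one was higher in all 3 control libraries in 141, and the naive one in 16.

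SOX15 and THY1 were listed at 0 in all 6 libraries, and these zeros were not read as absence here. SOX2, a core factor of these cells, was listed at 0 as well. SOX2 lies inside SOX2-OT and THY1 inside USP2-AS1, while SOX15 overlaps MPDU1. In a comparison made after these zeros were seen, of 1177 protein-coding rows whose gene lies inside another RefSeq gene, 60.4% were at 0 in all libraries, against 6.32% of 16373 others. SOX15 lies inside no other gene and counts among those others, so the comparison does not bear on its zero. The part of overlapping genes in these zeros was not tested.

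The marker balance was alike in the other lists of state genes. Of 15 further genes linked to the naive state, 8 reached 1 RPKM, with a median of 1.26 RPKM in the controls. The higher ones among them, such as NODAL (57.7 RPKM) and ZFP42 (38.1 RPKM), are also used by primed cells. Whether the higher primed-linked genes are also expressed in naive cells was not tested. DNMT3L, a cofactor of DNA methylation that marks naive human cells, was at 1.26 RPKM, and KHDC1L and OLAH were listed at 0. Of 14 further primed-linked genes with a row, 13 reached 1 RPKM, with a median of 22.6 RPKM, led by the methyltransferase DNMT3B at 412 RPKM. Of the 10 shared pluripotency factors, 9 reached 1 RPKM (median 71.6 RPKM), and the tenth was SOX2.

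Most markers of other cell types were low, with NES, an intermediate filament gene of neural progenitors, as the main exception at 57.6 RPKM, above VIM. None of 12 trophectoderm and amnion genes and none of 10 genes of the 8-cell stage with a row reached 1 RPKM in the controls. Of 8 genes each for mesoderm, endoderm and neural ectoderm, 1, 1 and 2 reached it, MIXL1 (5.57 RPKM), CXCR4 (2.45 RPKM), and NES with DCX (4.02 RPKM). The summed level of the 8 neural ectoderm genes was 67.5 to 76.7 RPKM in the knockdown and 58.3 to 67.9 RPKM in the control libraries, and its part in the marker values was not tested. Of 9 fibroblast genes, 3 reached it, among them COL1A2 at 6.91 RPKM, while LUM and DCN were at 0.00357 and 0.00957 RPKM. The summed level of the 8-cell genes, a list that also holds KLF17, was 1.92 RPKM in knockdown library a and 0.250 to 0.467 RPKM in the other 5 libraries. Their part in the values of naive markers in that library was not tested.

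The second question was whether the ALR gapmer moved the markers. Of the 29, 25 had enough counts to be tested (16 naive and 9 primed), and 0 passed an adjusted p of 0.05 in edgeR's quasi-likelihood test, beside 0.786% of all 19721 genes tested. At an unadjusted p under 0.05, 2 naive markers were on the higher side (FGF4 and ESRRB) and 2 primed markers on the lower side (VIM and TCF7L1). The background at that threshold was 6.68% of genes higher and 7.57% lower. Groups without overlap were found for FGF4 (knockdown higher; 9.55% of all genes) and for ALPPL2 and VIM (knockdown lower; 9.37% of all genes). DESeq2's Wald test called 1 member, VIM, beside 4.18% of the 12355 genes to which it gave an adjusted p. It gave none to 7 of the 16 tested naive markers (ALPPL2, ARGFX, DPPA5, ESRRB, KLF2, SUSD2 and TBX3), so these could not be called there. The background was 3.29% of genes with no low-count filter, 1.99% with libraries of the same letter as a block and 6.4% without knockdown library c.

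**Figure D2:**
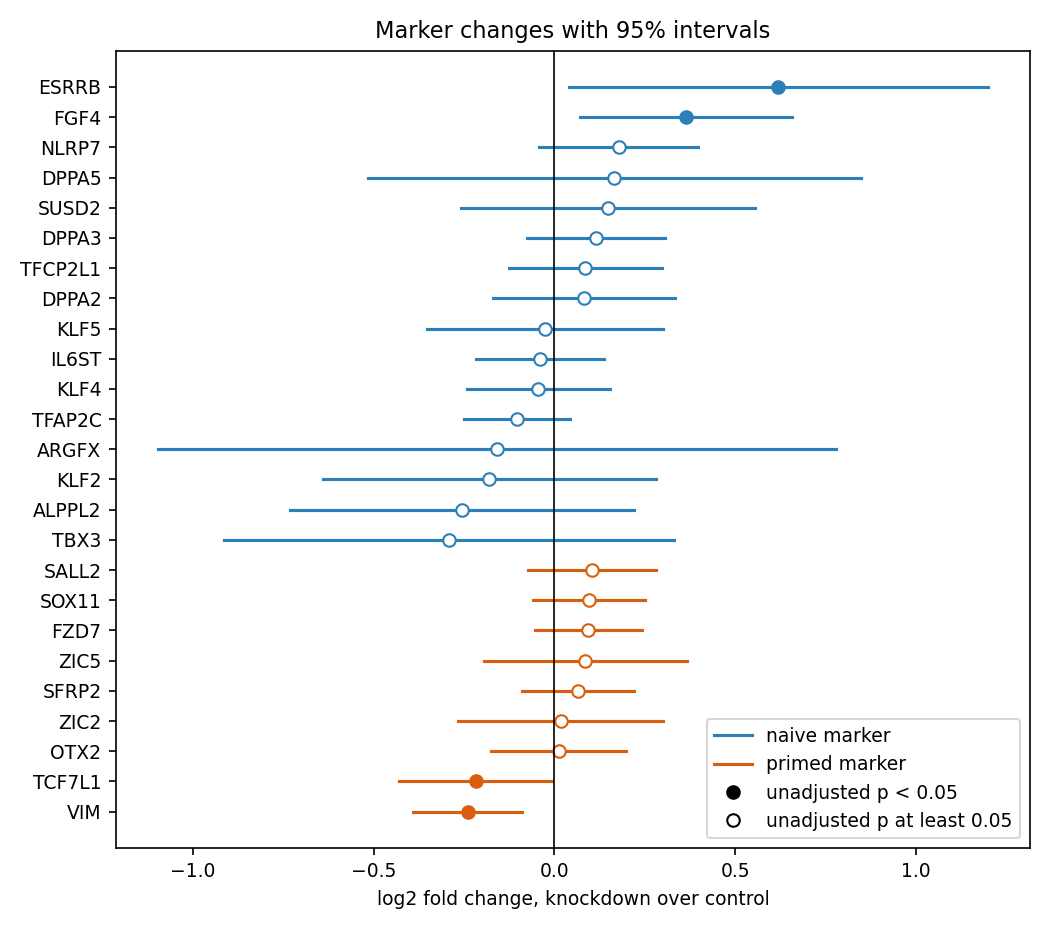
Log2 fold change of knockdown over control for the 25 tested members, with 95% intervals from the edgeR fit. Naive markers are blue and primed markers orange, and filled points have an unadjusted p under 0.05. The intervals of 21 members hold 0, and ARGFX has the widest (-1.10 to 0.78).

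FGF4 had 2.56, 2.87 and 2.56 RPKM in the knockdown libraries and 2.12, 2.35 and 1.75 RPKM in the control libraries. All knockdown values lay above all control values. The log2 fold change was 0.36 ± 0.13 (SE; 95% interval 0.07 to 0.66; edgeR adjusted p = 0.249). The edgeR and DESeq2 adjusted p was between 0.189 and 0.628 over the alternatives.

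ESRRB had 0.791, 0.611 and 0.367 RPKM in the knockdown libraries and 0.338, 0.348 and 0.464 RPKM in the controls. Knockdown libraries a and b were high, and knockdown library c lay among the controls. The log2 fold change was 0.62 ± 0.27 (SE; 95% interval 0.04 to 1.20; edgeR adjusted p = 0.321). Without knockdown library a it was 0.36 (edgeR adjusted p = 0.575), and without knockdown library c it was 0.84 (edgeR adjusted p = 0.0569).

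VIM had 41.1, 41.9 and 37.5 RPKM in the knockdown libraries and 49.8, 47.2 and 45.3 RPKM in the controls. The groups did not overlap. The log2 fold change was -0.24 ± 0.07 (SE; 95% interval -0.39 to -0.09; edgeR adjusted p = 0.146). It was called in 3 of 12 alternatives, namely DESeq2 (DESeq2 adjusted p = 0.0183), no low-count filter (edgeR adjusted p = 0.0479) and without knockdown library c (edgeR adjusted p = 0.0488). VIM shares exon sequence with the antisense gene VIM-AS1, whose row held 62 to 155 counts per library, against at least 4885 for VIM.

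TCF7L1 had 75.4, 80.3 and 100.5 RPKM in the knockdown libraries and 104, 94.5 and 99.3 RPKM in the controls. Knockdown libraries a and b were low, and library c was at the level of the controls. The log2 fold change was -0.22 ± 0.10 (SE; 95% interval -0.43 to -0.01; edgeR adjusted p = 0.337). Without knockdown library c it was -0.37 and passed the threshold (edgeR adjusted p = 0.00384), whereas without knockdown library a it was -0.14 (edgeR adjusted p = 0.586). TCF7L1 is long, with a span of 176979 bases (chr2:85133410-85310388, hg38).

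**Figure D3:**
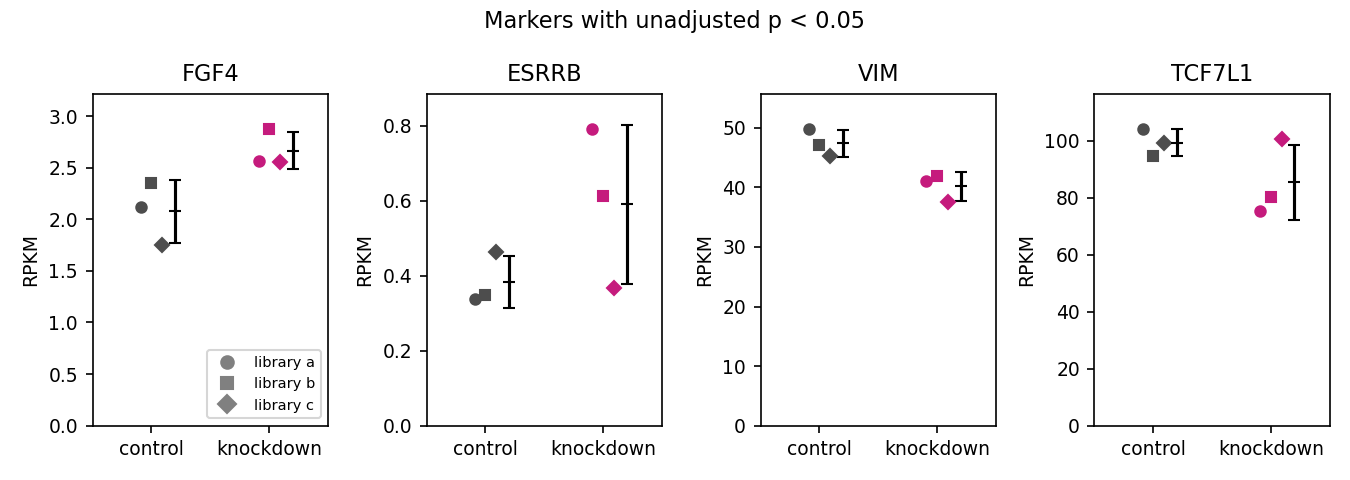
RPKM of FGF4, ESRRB, VIM and TCF7L1 in each library, with the mean and SD of the 3 libraries per group beside the points. Circles, squares and diamonds are libraries a, b and c. Knockdown library c lies among the controls for ESRRB (0.367 RPKM) and TCF7L1 (100.5 RPKM).

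TFAP2C, DPPA3, TFCP2L1, SUSD2 and DPPA5, which are among the usual readouts of the naive state, had 95% intervals of the fold change that held 0. TFAP2C had 18.2, 18.0 and 17.8 RPKM in the knockdown libraries, a log2 fold change of -0.10 (95% interval -0.25 to 0.04). DPPA3 had 20.3, 19.2 and 17.1 RPKM, a log2 fold change of 0.12 (95% interval -0.08 to 0.31). TFCP2L1 had 2.86, 3.43 and 2.88 RPKM, a log2 fold change of 0.09 (95% interval -0.13 to 0.30). Each of these 3 overlapped its controls.

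SUSD2 had 0.574, 0.517 and 0.555 RPKM in the knockdown libraries, a log2 fold change of 0.15 (95% interval -0.26 to 0.55). DPPA5 had 1.82, 1.68 and 1.46 RPKM, and its interval was wide (0.17; -0.52 to 0.85). ALPPL2 had 0.707, 0.733 and 0.667 RPKM, below all 3 controls, with a log2 fold change of -0.26 (95% interval -0.73 to 0.22; edgeR adjusted p = 0.643). With 42 to 79 counts per library, a change of that size in ALPPL2 could not be told from none.

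KLF4 had 5.09, 4.56 and 4.57 RPKM in the knockdown libraries (log2 fold change -0.04; 95% interval -0.24 to 0.15). DPPA2 had 7.47, 8.52 and 7.01 RPKM (0.08; -0.17 to 0.33), and NLRP7 3.84, 3.51 and 3.13 RPKM (0.18; -0.04 to 0.40). All 3 overlapped their controls, which for NLRP7 were 3.01, 3.18 and 3.07 RPKM. The log2 fold changes of KLF5, KLF2, IL6ST, ARGFX and TBX3 lay between -0.29 and -0.02, and each interval held 0.

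Of the primed markers, FZD7 had 84.3, 90.2 and 79.4 RPKM in the knockdown libraries, a log2 fold change of 0.09 (95% interval -0.05 to 0.24). SFRP2 had 38.5, 41.5 and 36.0 RPKM (0.07; -0.09 to 0.22), and SALL2 had 21.6, 24.9 and 22.0 RPKM (0.10; -0.07 to 0.28). Knockdown library b was the highest of the 6 for each of these 3 genes. OTX2, SOX11, ZIC2 and ZIC5 had log2 fold changes from 0.01 to 0.10.

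The intervals show the sizes of change that these libraries leave room for. Each was made for 1 gene alone and rests on a spread between libraries that may be technical. All 9 tested primed markers had a 95% interval within 0.5 of 0 on the log2 scale, as did 8 of the 16 naive markers. An interval within 1 of 0 was found for 14 of the 16 naive markers, the exceptions being ESRRB and ARGFX. The median log2 fold change was 0.03 over the naive and 0.07 over the primed markers, beside 0.02 over all genes tested. Above 0 were 8 of 16 naive markers, 7 of 9 primed markers and 10736 of all 19721 genes.

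The order of the sets was the same in the knockdown libraries. The summed level of the naive markers was 67.9 ± 3.44 RPKM in knockdown and 66.4 ± 1.88 RPKM in control libraries, and that of the primed markers was 295 ± 9.71 against 307 ± 9.15 RPKM (SD, n = 3 each). The ratio of primed to naive sums was 4.08, 4.35 and 4.64 in the knockdown libraries and 4.93, 4.49 and 4.46 in the controls. These ratios overlapped. In each of the 6 libraries, 11 naive and 9 primed markers were at 1 RPKM or more.

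**Figure D4:**
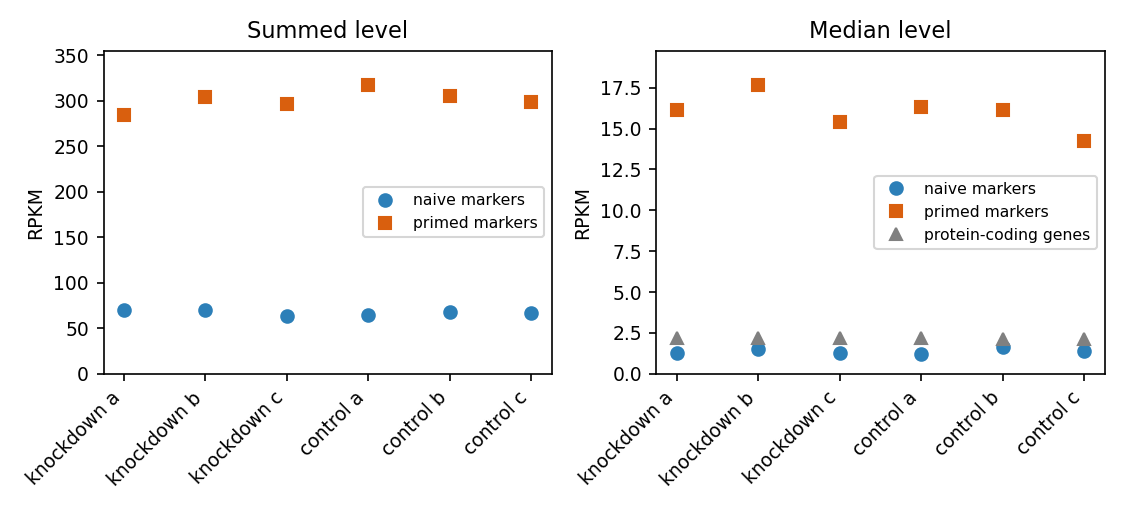
Summed RPKM (left) and median RPKM (right) of the 19 naive and 10 primed markers in each library, with the median of all protein-coding genes on the right. The primed sums of 285 to 317 RPKM stand above the naive sums of 63.9 to 69.9 RPKM in all 6 libraries.

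In edgeR with all libraries and the low-count filter, 0 genes of the related lists passed an adjusted p of 0.05 either, but some were called in alternatives, as given for each list. Of the LIF, gp130 and STAT3 pathway, which acts through IL6ST, 12 of 13 genes were tested, with 2 on the higher and 1 on the lower side at an unadjusted p under 0.05 (6.68% and 7.57% of all genes) and a median log2 fold change of 0.06. The kinase JAK2 differed by a log2 fold of -0.32 ± 0.10 (SE; edgeR adjusted p = 0.162), and SOCS3, the feedback inhibitor, 0.47 ± 0.14 (SE; edgeR adjusted p = 0.166). The SOCS3 level was 2.94, 3.13 and 3.55 RPKM in the knockdown libraries and 2.66, 1.93 and 2.37 RPKM in the controls, without overlap. Of the 12 tested genes, 1 was higher and 2 were lower without overlap, beside 9.55% and 9.37% of all genes. With no low-count filter JAK2 and SOCS3 both passed (edgeR adjusted p = 0.0451 for JAK2 and 0.0446 for SOCS3), and without knockdown library c JAK2 did (-0.40; edgeR adjusted p = 0.0443). DESeq2 called 0 genes of this list, but gave no adjusted p to 2 of the 12 tested genes, which it could therefore not call.

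Of 11 other KLF factors, 5 were on the lower side at an unadjusted p under 0.05 (7.57% of all genes) and 0 on the higher side (6.68%), with a median log2 fold change of -0.13. KLF6 differed by a log2 fold of -0.29 ± 0.06 (SE; edgeR adjusted p = 0.0662), and KLF7 -0.31 ± 0.07 (SE; edgeR adjusted p = 0.0702). KLF7 had 25.8, 26.8 and 29.5 RPKM in the knockdown libraries and 35.0, 32.6 and 34.4 RPKM in the controls. Each was called in 4 of 12 alternatives, both among them with DESeq2 (adjusted p 0.00447 for KLF6 and 0.000727 for KLF7) and without knockdown library c (edgeR adjusted p = 0.0188 and 0.00229). KLF12 was also called with DESeq2 (adjusted p 0.00468) and without knockdown library c (edgeR adjusted p = 0.00129). The same gene was called with no low-count filter (edgeR adjusted p = 3.32e-05) and with libraries of the same letter as a block (edgeR adjusted p = 0.020). KLF11 was called with no low-count filter alone (edgeR adjusted p = 0.0409). The tested KLF members of the naive list, KLF4, KLF5 and KLF2, had log2 fold changes of -0.04, -0.02 and -0.18.

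Of 18 TCF/LEF, frizzled and related Wnt genes, 14 had a log2 fold change above 0 (median 0.08), beside 10736 of all 19721 genes. At an unadjusted p under 0.05, 2 were on the higher side (6.68% of all genes) and 0 on the lower side (7.57%). AXIN2, a Wnt target that feeds back on the pathway, had 0.32 ± 0.08 (SE; edgeR adjusted p = 0.101), and the receptor FZD1 0.65 ± 0.25 (SE; edgeR adjusted p = 0.266). AXIN2 passed with no low-count filter (edgeR adjusted p = 0.0301) and without knockdown library c (edgeR adjusted p = 0.0318), where TCF7L2 passed too, and DESeq2 called 0 genes of this list. However, DESeq2 gave no adjusted p to 3 of these 18 genes, FZD1 among them, which it could therefore not call. Of 6 tested genes of the subcortical maternal complex list, ZBED3 had -0.33 ± 0.08 (SE; edgeR adjusted p = 0.0947) and NLRP2 0.16 ± 0.07 (SE; edgeR adjusted p = 0.311).

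Among the further state genes, FGF2, the growth factor that sustains primed cells, differed by a log2 fold of -0.39 ± 0.10 (SE; edgeR adjusted p = 0.101), and CDH2, N-cadherin, -0.22 ± 0.07 (SE; edgeR adjusted p = 0.192). FGF2 had 15.9, 14.4 and 19.5 RPKM in the knockdown libraries and 22.4, 20.2 and 22.3 RPKM in the controls. FGF2 was called with all libraries by DESeq2 (adjusted p 0.00440), with no low-count filter (edgeR adjusted p = 7.96e-05) and with libraries of the same letter as a block (edgeR adjusted p = 0.0160). Without knockdown library c it was called as well (-0.54; edgeR adjusted p = 0.00188). CDH2 was called by DESeq2 (adjusted p 0.0413) and without knockdown library c (edgeR adjusted p = 0.0187). NLGN4X was called in edgeR with no low-count filter and without knockdown library c. Of the 14 tested further primed-linked genes, 7 had a log2 fold change above 0 and 7 below it (median -0.005). At an unadjusted p under 0.05, 3 of the 14 were on the lower and 0 on the higher side, beside 7.57% and 6.68% of all genes. Without overlap, 2 were higher and 2 lower, beside 9.55% and 9.37%. On the naive side, ST6GAL1, which makes the CD75 epitope, had -0.21 ± 0.06 (SE; edgeR adjusted p = 0.150), and GDF3, a TGF-beta family ligand, 0.25 ± 0.08 (SE; edgeR adjusted p = 0.202). ST6GAL1 was called by DESeq2 (adjusted p 0.0177) and without knockdown library c (edgeR adjusted p = 0.0163). DNMT3L had 0.777, 0.725 and 0.766 RPKM in the knockdown libraries and 1.61, 1.30 and 0.859 RPKM in the controls, without overlap (log2 fold change -0.72; edgeR adjusted p = 0.258; named after its values were seen). Of the 10 tested further naive-linked genes, 3 were lower and 1 higher without overlap, beside 9.37% and 9.55% of all genes. At an unadjusted p under 0.05, 3 were on the lower and 1 on the higher side, beside 7.57% and 6.68%.

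Among the shared pluripotency factors, POU5F1 differed by a log2 fold of 0.42 ± 0.10 (SE; edgeR adjusted p = 0.0948) and LIN28A 0.19 ± 0.07 (SE; edgeR adjusted p = 0.269). POU5F1 was called by DESeq2 (adjusted p 0.00554), with no low-count filter (edgeR adjusted p = 1.37e-05) and without knockdown library c (edgeR adjusted p = 0.0441), and LIN28A without that library (edgeR adjusted p = 0.0171). POU5F1 has processed copies elsewhere in the genome, so its counts are uncertain. The median over the 9 tested factors was 0.00.

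**Figure D5:**
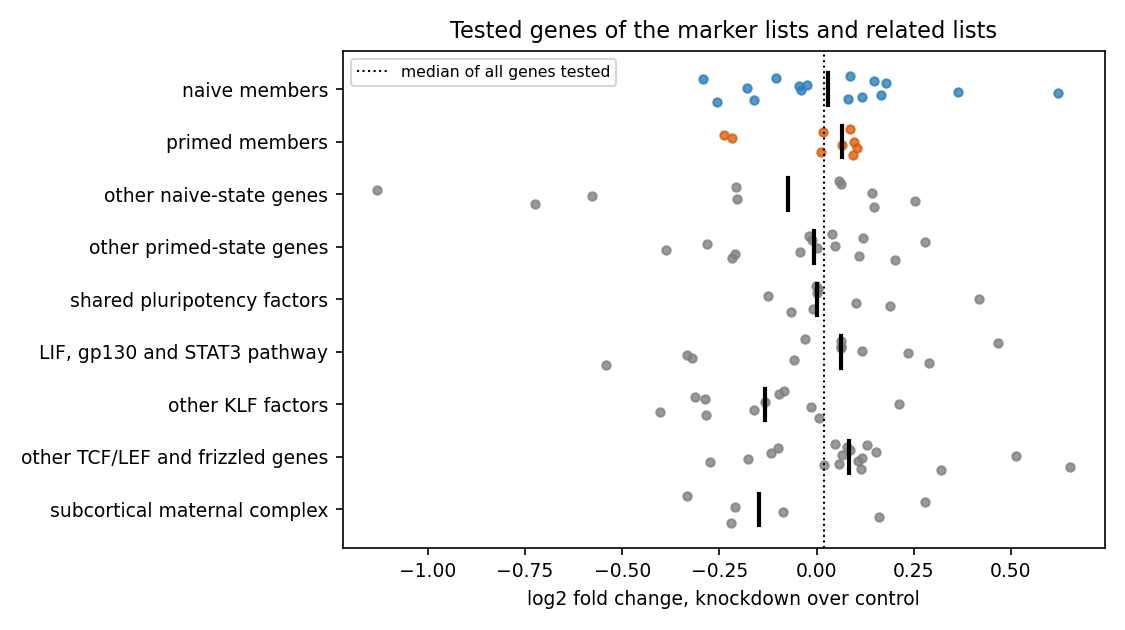
Log2 fold change of knockdown over control for each tested gene of the naive and primed markers and of the related lists, with a black bar at each list's median and a dotted line at the median of all genes tested (0.02). The naive (0.03) and primed (0.07) medians lie close to that line, and the median of the other KLF factors is -0.13.

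Of the lists of other cell types, 0 genes passed an adjusted p of 0.05 in edgeR with the low-count filter, and 1 did without it (PDGFRB, edgeR adjusted p = 0.0483). DESeq2 called 0 of them, and gave none of the 7 tested trophectoderm and amnion genes an adjusted p. Besides these 7, 3 mesoderm, 4 endoderm, 4 neural, 5 fibroblast and 1 of the 8-cell genes were tested. Among these, DESeq2 gave no adjusted p to 2 mesoderm, 3 endoderm, 2 neural and 3 fibroblast genes, nor to the 8-cell gene. Genes without an adjusted p could not be called there. At an unadjusted p under 0.05 the mesoderm gene EOMES (log2 fold change 1.16), the neural gene NES (0.20), the fibroblast-associated genes PDGFRB (1.15) and POSTN (0.94) and the 8-cell gene ZNF280A (2.20) were on the higher side. COL1A2 (-0.20) was on the lower side. The background at that threshold was 6.68% of all genes higher and 7.57% lower. EOMES and ZNF280A had at most 16 counts in any library. The genes with the smallest p among the others were GABRP (0.73), GATA3 (-0.55), MIXL1 (0.21), CXCR4 (0.24), GATA4 (0.55) and POU3F2 (-0.24), all above that threshold. Their part in the marker values was not tested.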

How the data were processed

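RNA-seq read counts per gene symbol were taken as deposited for 6 libraries, 3 per group, with groups from the sample titles. Per the submitters' processing notes, Trimmomatic 0.39, STAR 2.7.8a, featureCounts (Subread 2.14.2) and build hg38 were used, with no role given. The annotation, the strand setting and the handling of reads that align to several places are not given in the sources used here. The deposited counts were whole numbers with unequal totals, so no scaling was apparent.

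Genes were kept by filterByExpr, scaled by TMM and tested with edgeR 4.0.16 (R 4.3.3; glmQLFit, glmQLFTest, group as the only term, two-sided, Benjamini-Hochberg over all 19721 genes, threshold 0.05). RPKM used effective library sizes and exon lengths from GENCODE release 29, for 32906 symbols matched. The reference is GRCh38, the build the notes name. Intervals of 95% came from the quasi-likelihood fit. The procedure was tested on simulated data.

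Alternatives were DESeq2 1.42.0, other scalings, no filter, thinning, the replicate block and leaving out each library. Every member was named; per-library values went to the 6 naive and 5 primed markers highest in the controls, to those with an unadjusted p under 0.05 and to KLF17, DPPA3, DPPA5, SUSD2, ALPPL2 and TFCP2L1. From each other list, the 2 genes with the smallest p were named. Where other genes of these lists are named for a level, a count or a call, they were chosen after their values were seen. Pairs of levels were counted only between members with a count, a restriction made after the zeros were seen. Members and lists were chosen with earlier results of these data known. CD24 and DUXB had no row, and TBXT was read from the row of its older symbol T.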

Additional observations from a re-analysis of the deposited data

How the results depend on the processing

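The call that no naive marker passed an adjusted p of 0.05 in edgeR or DESeq2 was the same in all 12 alternatives, but DESeq2 gave no adjusted p to 7 of the 16 tested naive markers, which it could therefore not call (ESRRB among them). Of the primed markers, 1 passed with no low-count filter and 1 with DESeq2's Wald test (VIM both times), and 0 to 2 passed when a library was left out, the 2 being VIM and TCF7L1 without knockdown library c. Over all genes, 155 passed with all libraries, 1064 with no filter, 516 with DESeq2's Wald test and 26 to 1309 when a library was left out, the fewest without control library a and the most without knockdown library c. The cause was not tested. Libraries of the same letter did not deviate together (correlation of deviations from the group means 1.23e-05, 0.116 and -0.0251 for a, b and c), and with the replicate block 393 genes passed and no member did. When a library was left out, the median log2 fold change ran from -0.0136 to 0.111 over the naive and from -0.0292 to 0.0948 over the primed markers. Both medians were lowest, and below 0, without knockdown library b. Of 300 values of single members under alternatives, 295 moved by less than their SE and stayed uncalled, 1 moved by more when a library was left out, and 4 passed the threshold (VIM in 3 alternatives, TCF7L1 in 1). A change of sign of an uncalled member was not counted as a reversal: 14 of the 300 values, from 8 members, had the other sign. At a threshold of 5 RPKM instead of 1, 3 naive markers reached it instead of 11 (primed: 7 instead of 9). With 0.5 RPKM or the longest transcript, 13 and 11 naive markers did. Depth limits KLF17 and KHDC3L, which had 14 counts or fewer in every library.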
